A study of Mus musculus with 12 samples.

Results

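The replication-dependent histone genes are the short genes of the Hist1, Hist2, Hist3 and Hist4 loci that supply histone proteins to newly copied DNA. They were selected on symbol and level: protein-coding rows of the deposited table whose GENCODE M21 symbol begins with Hist1h, Hist2h, Hist3h or Hist4h were kept when at least 3 of the 12 libraries reached a value of 10. Of 64 such rows in a table of 21492 genes, 62 met the rule. They comprise 5 linker histone H1 genes, 16 H2A, 17 H2B, 11 H3 and 13 H4 genes. The rule used only the level of a gene, not its difference between groups. Only Hist1h2br had fewer than 3 of the 6 input libraries at 10 or more.

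The libraries came from synaptosomes, the pinched-off nerve terminals that form when brain tissue is homogenized, of the striatum of C57BL/6J mice, all male and at postnatal day 70. RNA of the synaptosomes (input) and RNA from their polyribosomes, transcripts carrying several ribosomes (polysome), was sequenced from wild-type mice (WT) and from mice labelled as carrying a Shank3 transgene (TG). There were 4 groups of 3 libraries, numbered 1 to 3. The promoter of the transgene is not given in the sources used here, and nothing in the labels ties the samples of a group to different animals, so the p-values reflect only how far these samples vary, which may be technical. Shank3, the gene for a scaffold of excitatory synapses, was 2.10 to 4.20 times as high in TG as in the same-numbered WT library. All values below are the authors' normalized estimated counts unless a log2 scale is named, and table totals were 95.5 to 113 M for input but 62.2 to 74.3 M for polysome libraries. In input, 1 read was worth about 1.27 to 1.81, and in polysome libraries 0.612 to 0.842, so low genes were measured less precisely in input.

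Histones H2A, H2B, H3 and H4 form the core around which DNA is wrapped, and H1 binds the linker DNA. Most mRNAs end in a poly(A) tail, but those of replication-dependent histones typically end just after a conserved stem-loop bound by the protein SLBP, lack introns and are made mainly in S phase. Adult striatum consists largely of cells that no longer divide, and some of these genes are also known to give polyadenylated transcripts in such cells. Per the labels' protocols the libraries were made with a total RNA kit, which does not select for poly(A).

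The stem-loops are shown because they are the element the histone mRNAs have in common that the choice by symbol and level did not use. Among the 62 genes, 43 had a histone stem-loop with 6 of 6 base pairs downstream of the stop codon in a GENCODE M21 transcript (GRCm38). It began 21 to 58 bases after the stop codon. The same search found it in 10 of 16741 other protein-coding genes of the table (0.0597%), with H2afx, the H2A variant phosphorylated at DNA breaks, among them. Capitals mark the arms of the stem, and the sites are mRNA sense, written as DNA:
Hist1h1c (H1) at chr13:23739507-23739532, plus strand: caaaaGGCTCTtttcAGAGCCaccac
Hist1h2ad (H2A) at chr13:23574890-23574915, plus strand: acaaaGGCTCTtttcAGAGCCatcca
Hist1h2bm (H2B) at chr13:21722501-21722526, plus strand: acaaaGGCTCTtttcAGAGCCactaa
Hist1h3c (H3) at chr13:23745042-23745067, minus strand: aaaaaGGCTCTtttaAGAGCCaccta
Hist1h3g (H3) at chr13:23535884-23535909, plus strand: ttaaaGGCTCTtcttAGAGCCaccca
Hist1h4h (H4) at chr13:23531453-23531478, plus strand: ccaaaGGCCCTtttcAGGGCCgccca
Hist1h4j (H4) at chr13:21735432-21735457, plus strand: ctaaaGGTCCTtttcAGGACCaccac
Hist2h4 (H4) at chr3:96262934-96262959, minus strand: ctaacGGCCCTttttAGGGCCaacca
The arms divided by class. All 3 H1, 10 H2A, 10 H2B and 8 H3 sites had the 5′ arm GGCTCT, whereas 10 H4 sites had GGCCCT and 2, in Hist1h4b and Hist1h4j, had GGTCCT. Of the 19 genes in which no site was found, 14 have an annotated 3′ UTR shorter than 40 bases, so the window held little or no sequence to search.

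Promoter sequence (RefSeq, GRCm38.p6) was matched for 55 of the 62 genes, over 250 bases before and 50 after the start, and 3 motifs were searched on both strands. CCAAT was present in all 43 promoters of H1, H2A, H2B and H3 genes and in 3 of 12 H4 promoters, against 37.4% of the promoters of all genes in the table of promoters. TATAAA was present in 32 of 55, against 13.6%. It was found in 8 of the 12 H4 promoters, though not in that of Hist1h4h printed below. The octamer ATTTGCAT occurred in 11 of 30 H2A and H2B promoters and in none of the 25 others, against 1.74%. The 150 bases before the start are printed for an H1, an H2B and an H4 gene, to show this division, with the motifs on either strand in capitals:
Hist1h1b (H1) at chr13:21780626-21780775, minus strand: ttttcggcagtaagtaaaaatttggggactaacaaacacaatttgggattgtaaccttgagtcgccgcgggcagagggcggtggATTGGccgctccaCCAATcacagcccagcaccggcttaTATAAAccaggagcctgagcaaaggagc
Hist1h2bg (H2B) at chr13:23571250-23571399, plus strand: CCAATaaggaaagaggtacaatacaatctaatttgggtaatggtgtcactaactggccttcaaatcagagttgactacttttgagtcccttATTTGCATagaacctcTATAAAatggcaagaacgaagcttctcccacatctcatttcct
Hist1h4h (H4) at chr13:23530894-23531043, plus strand: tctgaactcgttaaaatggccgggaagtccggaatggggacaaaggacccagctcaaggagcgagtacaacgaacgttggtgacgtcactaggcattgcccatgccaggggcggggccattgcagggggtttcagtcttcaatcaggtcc
The H2B promoter also faces an H2A gene: Hist1h2ae starts on the other strand with 175 bases between the genes. Windows of such facing H2A and H2B genes can overlap, so a single site can count for both. The octamer of Hist1h2ae and Hist1h2bg is such a site. A match is a description of the letters in this window.

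The genes lie close together. On chromosome 13, 50 of them fall within chr13:21715763-23764406, 9 lie within chr3:96219865-96270132, 2 within chr11:58948920-58956830, and Hist4h4 is alone at chr6:136801553-136804415. In GENCODE M21, 57 have a single transcript of 1 exon. Their exonic length had a median of 556 bases, against 4147 for all genes tested. Proteins repeat within the core classes but not within H1: the 13 H4 genes encode 1 distinct protein, the 11 H3 genes 2, the 16 H2A genes 8, the 17 H2B genes 10 and the 5 H1 genes 5. For 38 of the 62, more than 50% of their 31-base sequences occur in other genes, so reads of such copies can be split among them by the authors' estimation and their rows are not independent measurements.

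The members nearest the level threshold show how uncertain such rows are. Hist1h2br (H2B, 89.5% shared) was just inside, with 0, 100 and 0 in WT input, 0, 0 and 4.80 in TG input, 243, 0 and 0 in WT polysome and 0, 0 and 257 in TG polysome. Hist1h2ao (H2A, 93.8% shared) was outside, with 797 in TG input 3 and at most 6.8 elsewhere. Hist1h1t, the testis H1, was also outside and did not reach 10 in any library.

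Levels were set per kilobase of exonic length, since the genes differ in length. H4 genes had the highest class median, 1332 per kb in input and 3573 per kb in polysome libraries. The H1 median was 587 and 1060, the H3 median 454 and 1103, the H2A median 366 and 846, and the H2B median 207 and 562, in input and polysome respectively. Hist1h4h led all genes, with 8494 and 23849 per kb, and Hist2h2aa2 led the H2A class with 5462 and 7850. Ranges within classes were wide, from 202 (Hist4h4) to 8494 per kb among H4 genes in input, so the class medians describe genes of very different level. Per-kb values depend on the annotated ends, as for Hist1h1d, annotated at 7425 bases.

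The comparison of polysome with input asked which synaptosomal histone transcripts were relatively more or less abundant among those on polyribosomes. Histone transcripts were higher in the polysome libraries in every class. The summed value of the 62 genes was 42909 ± 10481 in input and 94414 ± 12015 in polysome libraries (SD, n = 6 each), and the polysome library was 2.28 ± 0.503 times its same-numbered input library (SD, 6 pairs, range 1.82 to 3.19). As a share of the signal of nuclear protein-coding genes this was 0.0586% to 0.122% for input but 0.178% to 0.235% for polysome libraries, ranges that do not overlap. These values are relative within each library, and in bulk RNA fewer cells of a type and less RNA per cell cannot be told apart.

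Gene by gene, 54 of the 62 were called higher and 0 lower in the mean of the WT and TG differences (limma, Benjamini-Hochberg adjusted p under 0.05 over 16962 genes), where 17.1% of all genes tested were called higher and 18.4% lower. All 62 differences were positive, from 0.27 to 2.28 on the log2 scale, with a median of 1.25 against 0.04 for all genes. In 46 of the 62, every polysome library lay above every input library, against 10.2% of all genes. By class, 5 of 5 H1, 13 of 16 H2A, 15 of 17 H2B, 10 of 11 H3 and 11 of 13 H4 genes rose. The median log2 difference was 1.28 for H1, 1.03 for H2A, 1.27 for H2B, 1.19 for H3 and 1.57 for H4.

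**Figure D1:**
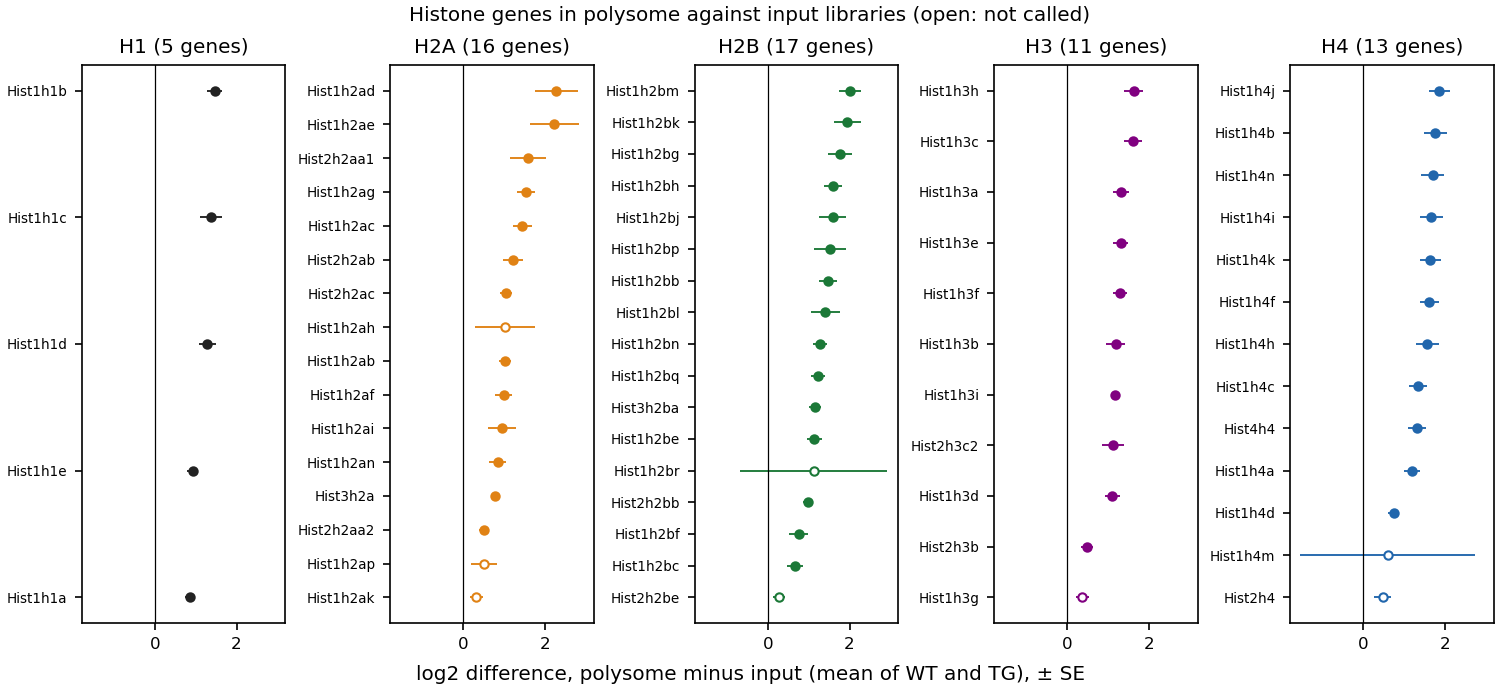
Log2 difference of polysome minus input (mean of WT and TG) for each of the 62 histone genes, by class, with bars for the SE of the limma fit; open circles are the 8 genes not called. All 62 points lie above 0, and the 3 widest bars belong to Hist1h4m, Hist1h2br and Hist1h2ah.

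Genes that rose were found at low and at high sequence sharing. Of the 24 genes sharing at most 50% of their sequence, 22 rose, with a median of 1.25, and of the 38 sharing more, 32 rose, with a median of 1.24. The order of the classes differed at low sharing. Medians there were 1.34 for H2A (4 genes), 1.33 for H4 (8), 1.28 for H1 (5), 1.14 for H2B (6) and 1.11 for H3 (1). Across the 62 genes the log2 difference had Pearson correlations of 0.02 with the shared percentage, -0.12 with log2 exonic length and -0.17 with log2 input level. These genes share libraries and sequence, so the correlations are descriptions. Of the 43 genes with a stem-loop 39 rose (median 1.32), and of the 19 without one found 15 rose (median 1.03). Transcripts annotated to run 300 or more bases past the stem-loop rose in 16 of 17 genes (median 1.29), and the others in 23 of 26 (median 1.54).

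Length moved with the comparison in the whole table. Other protein-coding genes with an exonic length under 1000 bases were called higher in 36.9% of 317 cases, with a median log2 difference of 0.51. Histone genes exceeded that level in most cases: 20 of 24 under 500 bases rose (median 1.20), and 20 of 21 from 500 to 1000 bases (median 1.46), where other genes had medians of 0.31 and 0.52. Under 500 bases there were only 28 other genes, with quartiles of -0.61 and 0.85. The 2 members of 4000 to 8000 bases, where the median of other genes was -0.06, also rose (median 1.21). With the trend on exonic length removed from each library, 48 of 62 were called higher, with a median of 0.96 (15.6% of all genes called higher). That trend was fitted over all genes tested, the histone genes included.

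**Figure D2:**
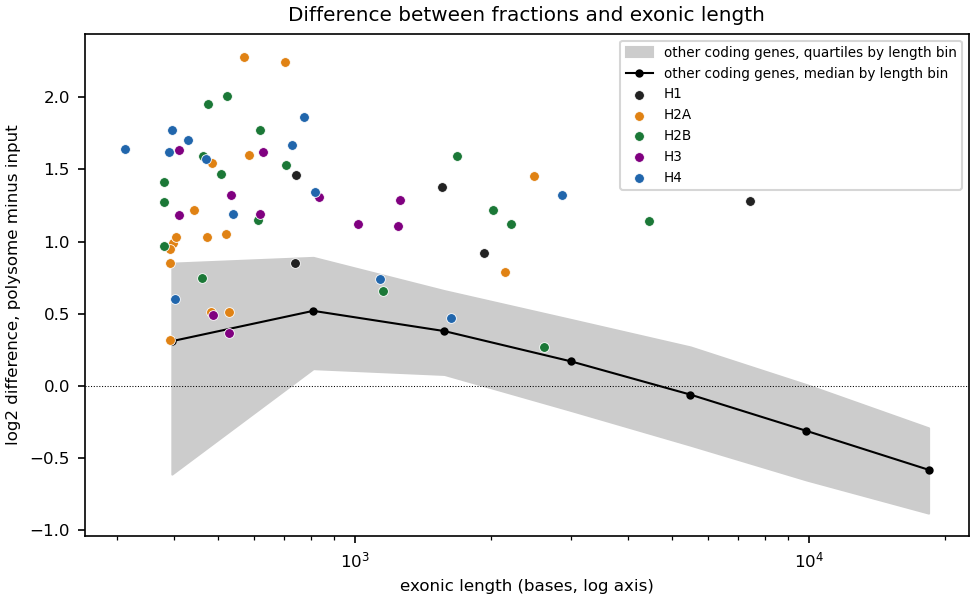
Log2 difference of polysome minus input (vertical axis) against exonic length in bases (log axis) for the 62 histone genes, coloured by class, with the median and quartiles of other protein-coding genes by length bin. The median of other genes falls from 0.52 at 500 to 1000 bases to -0.58 at 16000 bases and over, and most histone genes lie above the quartile band at their length.

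Linker histone H1 genes all rose. Hist1h1c, the H1 gene with the highest value per kb, read 1720, 2519 and 1206 in WT input, 2633, 2258 and 968 in TG input, 3705, 6365 and 3166 in WT polysome and 4700, 6708 and 4025 in TG polysome (libraries 1 to 3 in order, here and below). Every polysome value was above every input value, and the log2 difference was 1.38 ± 0.27, adjusted p = 0.00226. Hist1h1b had 78.9, 65.3 and 59.5 in WT input, 67.0, 68.8 and 41.1 in TG input, 179, 168 and 130 in WT polysome and 177, 221 and 176 in TG polysome. Its groups likewise did not overlap, although its level was the lowest of the class (1.46 ± 0.18, adjusted p = 0.000141). Hist1h1d was at 1041 ± 260 in input and 2552 ± 766 in polysome libraries (SD, n = 6 each; log2 difference 1.28 ± 0.21, adjusted p = 0.000764). Hist1h1e and Hist1h1a rose by 0.92 and 0.85 on the log2 scale, and no H1 gene shared more than 34.7% of its sequence with other genes.

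H2A genes, which pair with H2B in the nucleosome, had the widest spread. Hist1h2ad had the largest difference of all members, with 200, 276 and 38.1 in WT input, 346, 166 and 35.5 in TG input, 521, 762 and 445 in WT polysome and 692, 788 and 631 in TG polysome. The number 3 input libraries were far below the other input libraries, and no polysome value fell within the input range (log2 difference 2.28 ± 0.53, adjusted p = 0.00566). Hist1h2ae was at 96.1 ± 71.8 in input and 314 ± 49.5 in polysome libraries (2.24 ± 0.60, adjusted p = 0.0121), also lowest in both number 3 input libraries. It was not called without all libraries of number 2 (2.52, adjusted p = 0.053), and without those of number 3 the difference was 1.40 and was called. Hist2h2aa1 and Hist2h2aa2, neighbours on chromosome 3 that have 89.7% and all of their 31-base sequences in common with other genes, were both called. Hist2h2aa1 read 743, 1611 and 255 in WT input, 1241, 1163 and 365 in TG input, 1880, 3378 and 1052 in WT polysome and 2685, 3077 and 2295 in TG polysome. Its groups overlapped, WT polysome 3 lying below several input values (1.60 ± 0.44, adjusted p = 0.013), and it was not called without all libraries of number 1 (1.79, adjusted p = 0.0755). Hist2h2aa2 read 2708, 3000 and 2945 in WT input, 3217, 2577 and 2858 in TG input, 3544, 3370 and 5122 in WT polysome and 3990, 3816 and 5026 in TG polysome. Its rise was small but without overlap (0.51 ± 0.13, adjusted p = 0.00876), and with the length trend removed it was not called (0.16, adjusted p = 0.387), nor without all libraries of number 1 (0.59, adjusted p = 0.0522) or 3 (0.36, adjusted p = 0.0562). Since reads of this pair can be exchanged between the rows, the difference between them is uncertain.

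H2B genes rose in 15 of 17 cases. Hist1h2bm read 119, 90.4 and 59.1 in WT input, 199, 86.6 and 51.5 in TG input, 344, 358 and 304 in WT polysome and 455, 431 and 349 in TG polysome. All polysome values lay above all input values (2.01 ± 0.28, adjusted p = 0.000304). Hist1h2bk was at 131 ± 91.8 in input and 435 ± 72.0 in polysome libraries (1.95 ± 0.34, adjusted p = 0.00114) and Hist1h2bg at 480 ± 239 in input and 1480 ± 228 in polysome libraries (1.77 ± 0.30, adjusted p = 0.000862), both without overlap. Hist1h2bc, the H2B gene with the highest value per kb, read 1967, 3754 and 1949 in WT input, 2577, 3682 and 2036 in TG input, 3298, 5047 and 3573 in WT polysome and 4219, 4645 and 3788 in TG polysome. Both input libraries numbered 2 lay above WT polysome 1 and 3, and the rise was smaller (0.66 ± 0.20, adjusted p = 0.0193). It was not called with the length trend removed (0.34, adjusted p = 0.201), nor without WT input 3 (0.58, adjusted p = 0.051) or all libraries of number 1 (0.63, adjusted p = 0.132) or 3 (0.55, adjusted p = 0.141).

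H2A and H2B genes often share a promoter region. The table held 10 H2A and H2B pairs that start on opposite strands with 175 to 301 bases between them, and in 6 pairs both genes rose. The pair Hist1h2ae and Hist1h2bg, whose shared region is printed above, moved by 2.24 and 1.77 on the log2 scale. Hist1h2ad and Hist1h2bf moved by 2.28 and 0.75, a gap that was not tested.

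H3 genes rose in 10 of 11 cases. Hist1h3c read 106, 109 and 95.1 in WT input, 194, 108 and 59.7 in TG input, 287, 287 and 271 in WT polysome and 383, 387 and 360 in TG polysome. Polysome and input values did not overlap (1.62 ± 0.22, adjusted p = 0.000302). Hist1h3h was at 286 ± 122 in input and 827 ± 109 in polysome libraries (1.63 ± 0.24, adjusted p = 0.000387), with 94.2% of its sequence shared. Hist1h3a rose by 1.32 ± 0.19, adjusted p = 0.000383. Hist1h3e, with the highest value per kb among H3 genes, was at 1012 ± 270 in input and 2459 ± 369 in polysome libraries (1.31 ± 0.18, adjusted p = 0.00028), and its groups did not overlap.

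H4 genes had the largest class median difference, though not among genes sharing at most 50% of their sequence (1.33, against 1.34 for H2A). Hist1h4h, the most abundant per kb of all members, read 3666, 5881 and 2457 in WT input, 5789, 4235 and 1925 in TG input, 8552, 14791 and 7937 in WT polysome and 11974, 12790 and 11211 in TG polysome. The lowest polysome library, WT 3, was above the highest input library (1.57 ± 0.28, adjusted p = 0.00109). Hist1h4j, which has a GGTCCT arm and 29.4% shared sequence, read 271, 155 and 146 in WT input, 361, 213 and 102 in TG input, 575, 803 and 686 in WT polysome and 716, 625 and 791 in TG polysome. These groups were also separate (1.86 ± 0.26, adjusted p = 0.000339). Hist1h4b, the other gene with that arm, was at 456 ± 224 in input and 1418 ± 228 in polysome libraries (1.77 ± 0.28, adjusted p = 0.000652), and Hist1h4n at 2389 ± 1113 in input and 7129 ± 1271 in polysome libraries (1.70 ± 0.29, adjusted p = 0.000952). Hist4h4, alone on chromosome 6 with 11.5% shared sequence, rose by 1.32 ± 0.22, adjusted p = 0.000715.

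The summed values set the classes side by side. Polysome libraries were 2.61 ± 0.751 times their input library for H4, 2.36 ± 0.570 for H3, 2.30 ± 0.437 for H1, 2.08 ± 0.319 for H2B and 1.84 ± 0.356 for H2A (SD, 6 pairs). The ratios of neighbouring classes in this order differ by less than their spread over pairs. H4 made up 37.0% to 44.1% of the histone sum of input libraries but 44.9% to 48.9% of that of polysome libraries, and H2A 19.9% to 25.2% and 16.1% to 20.0%. The H4 ratio exceeded the H2A ratio in all 6 pairs, and its highest value, 3.99, came from TG number 3. Abundant rows weigh most in such sums. Among genes sharing at most 50% of their sequence, the median log2 differences were alike, 1.34 for H2A and 1.33 for H4. Members of a class share sequence, and no test was made of these sums.

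**Figure D3:**
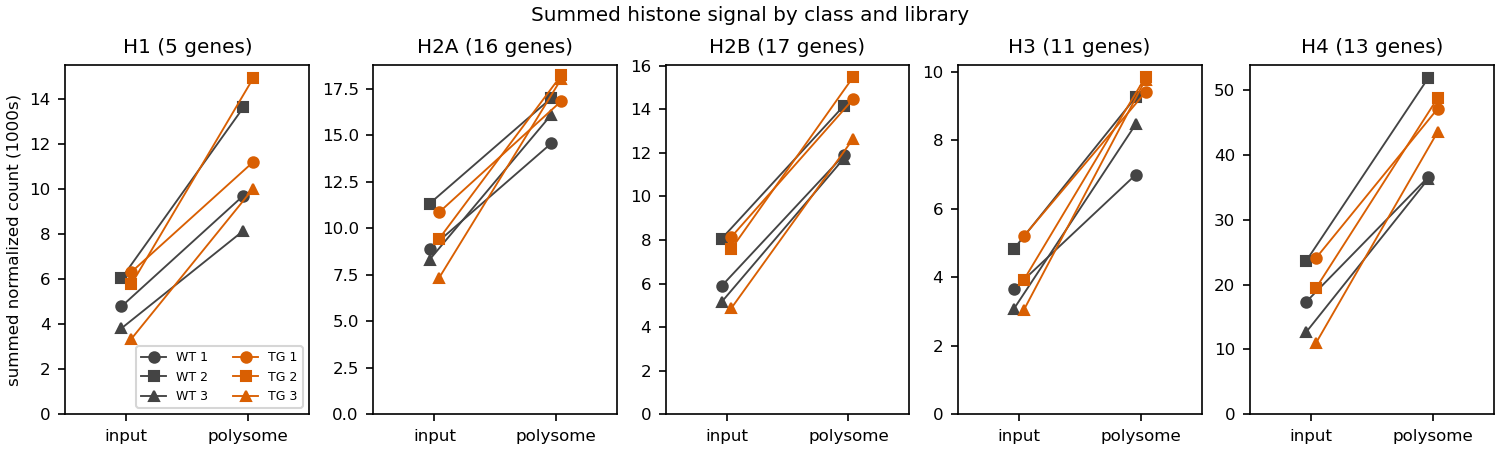
Summed normalized count (in units of 1000, axes from 0) of the genes of each histone class in the input and polysome libraries, with a line for each same-numbered pair of a genotype (grey WT, orange TG; circle, square and triangle for numbers 1, 2 and 3). All 30 lines rise, and the number 3 input libraries are the lowest of their genotype in every class.

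The libraries with the same number moved together, and the number 3 input libraries were low. The member median of number 3 against the other input libraries was -0.63 on the log2 scale, and -0.96 for H4, against -0.02 for all genes. In polysome libraries the same value was -0.16. The 3 pairs accordingly differed, with median polysome minus input differences of 0.83, 1.39 and 1.86 in TG, where number 3 was again the highest in WT. Of the 62 genes, 59 to 62 were positive in each pair. What the numbers stand for is not given in the labels, and the part of the number 3 input libraries in the size of the difference was not tested. Without any library of number 1, 2 or 3 in turn, 46 to 51 genes were called higher, beside 9.43% to 11.2% of all genes.

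Most of the 8 genes not called fell into groups by precision and size. Hist1h2br, Hist1h4m and Hist1h2ah shared 89.5%, 91.7% and 91.2% of their sequence and were listed at 0 in some libraries. Hist1h4m read 0, 300 and 111 in WT input, 8.14, 253 and 250 in TG input, 0, 664 and 317 in WT polysome and 0, 869 and 1310 in TG polysome, so both number 1 polysome libraries were at 0 beside values up to 1310. The others, apart from Hist1h2ap, were measured more closely and differed little. Hist2h2be, which shares 2.8% of its sequence, read 220, 187 and 273 in WT input, 248, 235 and 245 in TG input, 241, 250 and 345 in WT polysome and 284, 312 and 272 in TG polysome. The groups overlapped (0.27 ± 0.14, adjusted p = 0.144). Hist2h4, an H4 gene that shares 2.3% of its sequence and is annotated for 1257 bases past its stem-loop, read 498, 1086 and 783 in WT input, 683, 1133 and 675 in TG input, 831, 1280 and 1086 in WT polysome and 1055, 1056 and 1195 in TG polysome. WT input 2 and TG input 2 reached the polysome range (0.47 ± 0.20, adjusted p = 0.0865). Hist1h3g (0.37 ± 0.16), Hist1h2ak (0.32 ± 0.16) and Hist1h2ap (0.51 ± 0.33, 93.4% shared) were the remaining ones. With the replicate block that pairs input and polysome libraries, 57 of 62 were called (24.8% of all genes), Hist2h4, Hist1h3g and Hist1h2ak among them.

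For the WT difference in the fit of all 12 libraries, 41 of 62 genes were called higher and 0 lower (median log2 difference 1.19). Of all genes, 5.36% were called higher and 8.59% lower. For the TG difference in the same fit, 45 were called higher and 0 lower (median 1.35). Of all genes, 8.19% were called higher and 9.86% lower. Fits of only the 6 libraries of a genotype called 43 of 61 higher in WT (4.54% of all genes) and 42 of 61 in TG (3.85%). With the replicate block these counts were 53 (13.9% of all genes) in WT and 54 (16.7%) in TG. The WT count rested on single libraries: it was 10 without WT input 3, 19 without WT polysome 2 and 21 without WT polysome 3. The share of all genes called higher fell as well in these fits, to 0.753%, 1.93% and 1.35%. With the length trend removed the WT count was 26, beside 4.29% of all genes. By class, the genes called in WT and TG were 5 and 5 of 5 for H1, 6 and 10 of 16 for H2A, 10 and 11 of 17 for H2B, 9 and 8 of 11 for H3, and 11 and 11 of 13 for H4. With the length trend removed, H1 had 2 of 5 in WT and 4 of 5 in TG.

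The Shank3 comparison asked whether histone transcripts differ between TG and WT within a fraction. No histone gene was called in input or in polysome libraries (limma, 0 of 61 tested in each, 0% of all genes called in either direction). At an unadjusted p under 0.05 there were 2 in input and 2 in polysome, beside 80 of 16341 and 53 of 16312 genes overall. Both totals are fewer than a level of 0.05 would give if no gene differed. This fit had no term for the library number, so what same-numbered libraries share stayed in its error. Leaving out any library or scaling by TMM gave 0 called as well, and so did the replicate block, under which 0.00613% of all genes were called higher in polysome libraries.

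In polysome libraries the differences pointed the same way without passing the test. Of the 61 genes, 60 were positive, with a median of 0.22, where 53.4% of all genes were positive with a median of 0.01. These genes share the same libraries and much of their sequence, so they are not independent measurements. In the pairs numbered 1 to 3, 54, 45 and 51 of the 62 genes were positive, against 51.4%, 49.6% and 55.4% of all genes. For H4 the second pair had 5 of 13 positive. The class medians were 0.27 for H1, 0.17 for H2A, 0.24 for H2B, 0.29 for H3 and 0.20 for H4. The summed TG values were 1.24, 1.01 and 1.17 times the WT values in the pairs numbered 1 to 3, and for H4 the second pair was 0.942. With each library left out in turn the median stayed between 0.15 and 0.29. All 10 medium spiny neuron markers were positive in the same libraries (median 0.23) and also in input (median 0.18), and 0 were called. All 5 erythroid markers were positive too, with medians of 0.29 in polysome and 0.18 in input libraries, and 0 were called. The other marker lists had polysome medians from -0.43 (choroid and ependymal) to 0.10 (oligodendrocyte). The part of these markers in the histone difference was not tested. In input 31 of 61 genes were positive, with a median of 0.01, which ranged from -0.23 to 0.34 with each library left out, and the summed ratios were 1.35, 0.857 and 0.895.

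**Figure D4:**
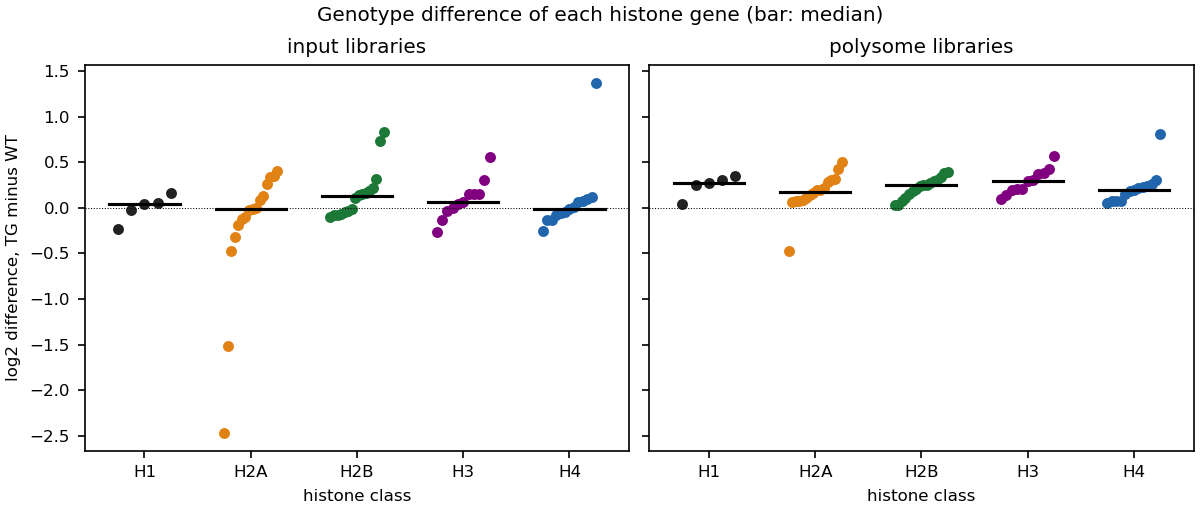
Log2 difference of TG minus WT for each of 61 tested histone genes by class, in input (left) and polysome libraries (right), with class medians as bars. The points lie on both sides of 0 in input, where 31 are positive, and 60 of 61 lie above 0 in polysome libraries; none was called.

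The genes with the smallest p show the size of such differences. In polysome libraries Hist1h3g read 133, 184 and 138 in WT polysome and 231, 240 and 204 in TG polysome. Each TG value exceeded each WT value (log2 difference 0.57 ± 0.20, unadjusted p = 0.0211, adjusted p = 1.00). Hist1h3c differed by 0.42 ± 0.15, unadjusted p = 0.0265, adjusted p = 1.00, and Hist1h1a by 0.35 ± 0.16, unadjusted p = 0.0573, adjusted p = 1.00. In input Hist1h2ai read 247, 208 and 235 in WT input and 189, 29.8 and 89.5 in TG input. TG number 2 was by far the lowest, and 92.0% of the gene's sequence is shared (-1.51 ± 0.58, unadjusted p = 0.0312, adjusted p = 1.00). Hist1h2bn read 89.3, 63.2 and 61.9 in WT input and 157, 99.4 and 105 in TG input. It was higher in every TG library (0.73 ± 0.30, unadjusted p = 0.0394, adjusted p = 1.00). Hist1h2ah, listed at 0 in TG input 3, differed by -2.47 ± 1.30, unadjusted p = 0.0932, adjusted p = 1.00.

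The difference of the fraction effect between genotypes was not called for any of the 62 genes (0% of all genes in either direction; limma, 1 histone gene and 94 genes overall at an unadjusted p under 0.05). The median was 0.21 on the log2 scale, with 49 positive. Without TG input 3 the median was -0.10, and without WT input 2 it was 0.03, so its direction rested on single libraries. The smallest p values belonged to Hist1h2ai (1.60 ± 0.68, unadjusted p = 0.0356, adjusted p = 1.00), Hist1h2bn (-0.48 ± 0.34, unadjusted p = 0.174, adjusted p = 1.00) and Hist1h1b (0.50 ± 0.36, unadjusted p = 0.188, adjusted p = 1.00).

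Other histone genes and the genes of histone supply were read beside them. Replication-independent histones, which replace core and linker histones outside S phase and mostly have polyadenylated mRNAs, rose in 8 of 11 cases with 0 lower, and their median of 0.63 was below that of the replication-dependent genes. Of all genes tested, 17.1% were called higher and 18.4% lower. With the length trend removed, 6 were higher and 1 lower (median 0.50). In that setting 15.6% of all genes were called higher, and the share of all genes called lower was not counted. H2afz read 5253, 5628 and 3378 in WT input, 6629, 4573 and 3111 in TG input, 9032, 9910 and 8321 in WT polysome and 10663, 9931 and 9167 in TG polysome. Its polysome values lay above all input values (1.04 ± 0.18, adjusted p = 0.000991). H1fx (1.17 ± 0.25, adjusted p = 0.00314) had the largest rise of the list, and H2afy2, a macroH2A gene, was not called (-0.35 ± 0.15, adjusted p = 0.0987).

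Genes whose products process or degrade histone mRNA fell more often than they rose: 1 of the 15 in the table rose, 8 fell, and the median was -0.40. For this list and the next, the shares of all genes were 17.1% higher and 18.4% lower. With the length trend removed, 1 rose, 6 fell and the median was -0.24 (15.6% of all genes higher, share lower not counted). Slbp, the gene of the stem-loop binding protein, was at 827 ± 113 in input and 899 ± 156 in polysome libraries and was not called (0.11 ± 0.15, adjusted p = 0.582). Lsm10, a subunit of the histone pre-mRNA cleavage machinery, rose (0.48 ± 0.15, adjusted p = 0.0237). Cpsf2, also of that machinery, fell most (-0.80 ± 0.17, adjusted p = 0.0033). Of 16 histone chaperone and assembly genes 2 rose and 10 fell (median -0.49), and 0 rose and 7 fell with the length trend removed (median -0.36). Asf1a, an H3 and H4 chaperone, rose most (0.42 ± 0.14, adjusted p = 0.0385), and Supt16, a subunit of the FACT complex, fell most (-1.19 ± 0.14, adjusted p = 9.27e-05).

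S phase and proliferation genes, which are expressed together with these histones in dividing cells, fell in 12 of 25 cases and rose in 3 (median -0.26). Of all genes, 18.4% fell and 17.1% rose, so the share of the list that rose was not above that of all genes. With the length trend removed, 12 fell and 2 rose (median -0.27, 15.6% of all genes higher, share lower not counted). Tyms, which makes thymidylate, read 25.6, 30.2 and 16.3 in WT input, 25.7, 39.8 and 26.4 in TG input, 99.4, 112 and 77.4 in WT polysome and 106, 114 and 68.4 in TG polysome. It rose without overlap (1.80 ± 0.23, adjusted p = 0.000187), as the largest rise of the list. Pola1, the catalytic subunit of DNA polymerase alpha, was at 678 ± 176 in input and 157 ± 54.6 in polysome libraries and fell most (-2.12 ± 0.22, adjusted p = 5.52e-05). The proliferation marker Mki67 fell by 1.34 on the log2 scale. Most genes of this list were therefore not higher in polysome libraries where the histone genes were.

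**Figure D5:**
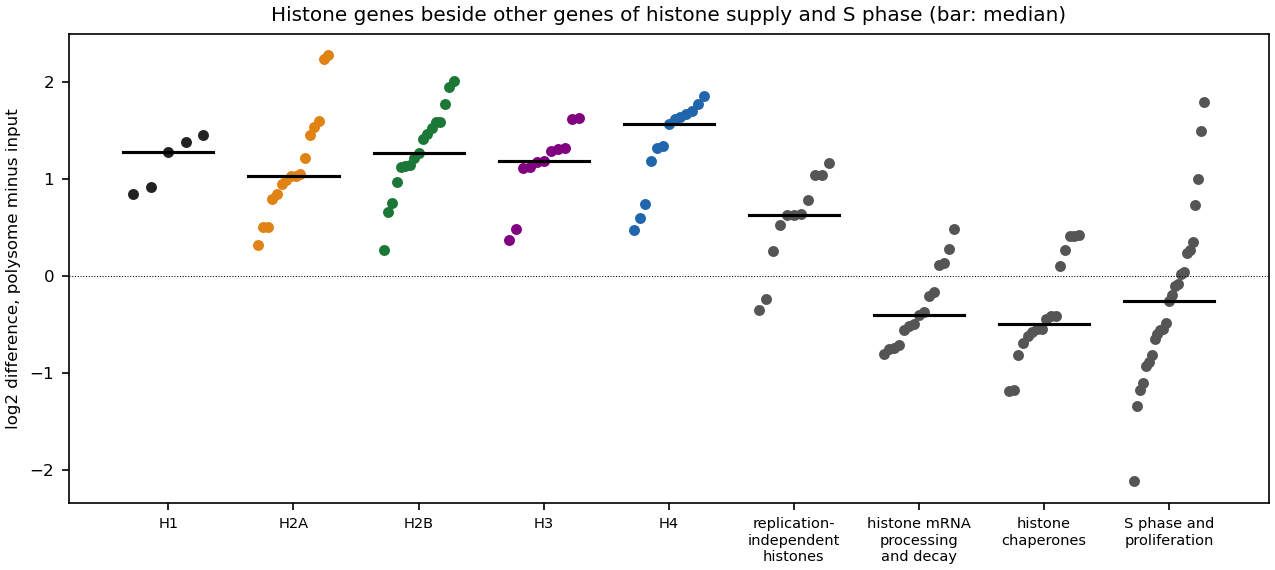
Log2 difference of polysome minus input for the histone genes by class and for 4 other lists (grey), with medians as bars. The histone classes have medians of 1.03 to 1.57, replication-independent histones 0.63, and the processing, chaperone and S phase lists -0.40, -0.49 and -0.26.

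Markers of cell types moved in either direction between the fractions, and their part in the histone difference was not tested. Of all genes, 17.1% were called higher and 18.4% lower, and 24.8% and 24.6% with the replicate block. Several of the counts below lie near these shares. Microglial markers rose in 5 of 10 cases with 0 lower, their sum ranging from 40941 to 57246 in input and from 48047 to 66528 in polysome libraries. C1qa, a complement gene, had the largest difference (0.73 ± 0.17, adjusted p = 0.00551), while Csf1r (-0.35), Cx3cr1 (-0.23) and P2ry12 (-0.12) were negative and not called, and with the replicate block 6 were higher and 1 lower. Medium spiny neuron markers rose in 2 of 10 with 0 lower, a share near that of all genes, with sums of 194489 to 446014 and 197520 to 501720. Adora2a (0.82) had the largest rise, Rgs9 (-0.81) and Pde10a (-0.77) were negative and not called, and with the replicate block 6 were higher and 2 lower. Oligodendrocyte markers rose in 2 of 8 and fell in 1 (Mog 1.05, Mag -0.87; 2 and 3 with the block), with sums of 247323 to 436669 and 232403 to 383412. Oligodendrocyte precursor markers, whose cells divide in the adult brain, rose in 1 of 8 (Olig1, 0.45) and fell in 4 (Gpr17, -0.88), with sums of 19098 to 22194 and 14907 to 19207; the block gave 2 and 5. Neuroblast and progenitor markers fell in 2 of 8 (Egfr, -0.72) with 0 higher, also with the block, with sums of 3968 to 5299 and 3316 to 4287. Astrocyte markers rose in 1 of 8 (Fgfr3, 0.35) and fell in 2 (Slc1a3, -1.08), against 3 and 2 with the block. Synaptic markers fell in 4 of 10 (Gad1, -1.06) with 0 higher, against 4 lower and 3 higher with the block. Endothelial markers had 1 of 8 higher (Cldn5, 0.95) and 0 lower, erythroid markers 1 of 5 higher (Hbb-bt, 1.06) and 0 lower, and choroid or ependymal markers 0 of 8 higher and 1 lower (Enpp2, -0.49). With the block these became 1 and 2, 2 and 1, and 1 and 2, higher and lower. With the length trend removed, counts higher and lower were 2 and 0 for microglial and 1 and 0 for medium spiny neuron markers. In that setting 15.6% of all genes were higher, and the share lower was not counted. They were 1 and 1 for oligodendrocyte, 0 and 3 for precursor, 1 and 1 for neuroblast and progenitor, and 1 and 2 for astrocyte markers. For synaptic, endothelial, erythroid and choroid or ependymal markers they were 1 and 2, 1 and 0, 1 and 0, and 0 and 1. The ependymal marker Tmem212 was the only listed marker at 0 in any library.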

How the data were processed

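RNA of 12 libraries was measured, 3 for each of 2 genotypes and 2 fractions. The submitters' processing notes name DESeq2 1.26.0, Salmon 1.1.0 and R 3.6.2 on GRCm38. The deposited signal holds 1 estimated count per gene and library, normalized by the authors. It is not whole, so no count model was used. The authors' annotation, index and use of strand were not given in the sources used here.

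Symbols, coordinates, lengths and transcript sequences came from GENCODE mouse release 21 (M21), which matched 21465 of 21492 gene identifiers. limma 3.58.1 (R 4.3.3) was fitted to log2(value + 1) with a variance trend over genes with a value of 10 or more in at least 3 fitted libraries, so fold changes of low genes are understated. P-values were adjusted by Benjamini-Hochberg over all genes tested, with a threshold of 0.05. A single model of all 12 libraries gave polysome against input and the interaction, and genotype from the 6 libraries of a fraction. Errors of log2 differences are standard errors.

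Same-numbered libraries deviated together from their group means (r = 0.24 to 0.55 over 18 pairs, and 0.28 to 0.45 for the 6 input and polysome pairs), so a replicate block was fitted as an alternative. The pairing comes from these values and the shared numbers. Others were TMM scaling, filters, pseudocounts, no variance trend, removal of the trend on exonic length (lowess), libraries left out and members of low sequence sharing. Leaving out all libraries of a number was chosen after seeing the data. In simulated data with 200 changed genes, the mean comparison recovered 63% of changes of 1 and 93% of changes of 2 on the log2 scale. The simulated libraries varied independently, unlike the same-numbered libraries here, so recovery in these data may differ. Recovery was lower elsewhere: 41% and 80% in WT, 33% and 83% in TG, 24% and 70% for genotype in input, 32% and 75% for genotype in polysome, and 8% and 53% for the interaction.

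The genes and lists were chosen with earlier results of these data known. Genes named are the 3 largest rises per class, the highest per kb in each class, the smallest p where none was called, those nearest the level threshold, and from each of 14 lists the called genes with the largest rise and fall. Genes not called (Slbp included), Hist1h1e, Hist1h2bf, Hist4h4, Mki67, H2afz and H2afy2 were named after their values were seen.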

Additional observations from a re-analysis of the deposited data

How the results depend on the processing

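The genotype medians of the interaction and of input were unstable. The interaction's went from 0.21 to -0.10 without TG input 3, and that of TG against WT in input ranged from -0.23 to 0.34. That of TG against WT in polysome libraries stayed positive with each library left out. No class ratio or named gene reversed under the alternatives run. In the mean of WT and TG, the count called higher was 48 to 57 under other scaling, filters, pseudocounts, length correction and the replicate block, 51 to 55 with each library left out, and 22 of the 24 genes of low sequence sharing (20 in WT, 20 in TG). In WT, the count was 26 with the length trend removed and ranged from 10 to 45 with each library left out. Leaving out all libraries numbered 1, 2 or 3 gave 6, 1 and 6 in WT and 25, 5 and 15 in TG, with fewer samples in the fit. All genes were then called higher in 0.367%, 0.096% and 0.363% of cases in WT and 1.23%, 0.27% and 0.69% in TG. With the replicate block and without replicate 2, WT had 5 (0.39% of all genes). In TG, leaving out each library gave 33 to 47. The replicate block changed no call between genotypes or in the interaction, where 0 histone genes were called in every setting. Of the values of named genes, 503 of the mean comparison kept their side of the threshold and 10 lost it. In WT 410 kept it, 101 lost it and 21 gained a call, and in TG 451, 64 and 17. Depth limits the low and highly shared genes, such as Hist1h2br and Hist1h4m.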
